A study of Mus musculus with 6 samples.

Results

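The measurements concern 10 mouse genes that act together in the silencing of neuronal genes: the CTD small phosphatase genes Ctdsp1, Ctdsp2 and Ctdspl, the repressor gene Rest, the corepressor genes Rcor1, Rcor2 and Rcor3, and the genes of their partner proteins Kdm1a, Phf21a and Hmg20b. Their members were the 26 of 45101 probe sets on the array that the platform annotation assigned to these symbols, and each probe set was treated on its own. RNA came from CAD cells, an established mouse neuroblastoma line of the catecholaminergic lineage, grown in serum and transfected either with a plasmid that expresses miR-124a-2 (RIPmiR-124a-2), from which miR-124, a microRNA abundant in brain, is made, or with the RI vector without an insert (empty vector). There were 3 biological replicates in either group and 1 Affymetrix array for each, and this small number of arrays sets the precision. A single line was used, and the labels give neither the share of cells that took up the plasmid nor the time after transfection. What the labels call biological replicates is not described further, so the p-values set the group difference only against the spread between these arrays within their groups.

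REST is a zinc-finger protein that binds a DNA element near many neuronal genes and holds them silent in non-neuronal cells and neural progenitors. It brings in CoREST proteins, encoded by the Rcor genes, which carry the histone demethylase KDM1A together with the histone-binding protein PHF21A and the DNA-binding protein HMG20B. The small phosphatases, known as SCPs, remove phosphate from the tail of the large subunit of RNA polymerase II, are recruited to the same genes by REST, and also act on REST itself and on SMAD proteins. miR-124 is a microRNA of neurons, and Ctdsp1 is among its reported targets. Comparing the plasmid with the empty vector asks how the transcripts of this machinery change when miR-124 is supplied.

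Of the 26 probe sets, 1 passed the test, that of Ctdsp1, which was lower with the miR-124a-2 plasmid. To pass, a probe set needed an adjusted p under 0.05 in a limma fit to all 45101 probe sets, with Benjamini-Hochberg adjustment. Over the whole array 0.268% of probe sets passed, 0.208% lower and 0.0599% higher. The other 25 member probe sets did not pass. The median change of the members was -0.03 on the log2 scale, beside 0.0023 for all probe sets, with 16 members below 0 and 10 above. In 3 of the 26, 1 of Ctdsp1 and 2 of Ctdsp2, every plasmid array lay below every empty vector array, and in none did every plasmid array lie above. Over the whole array 6.96% of probe sets were separated in the lower direction and 6.27% in the higher direction.

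**Figure D1:**
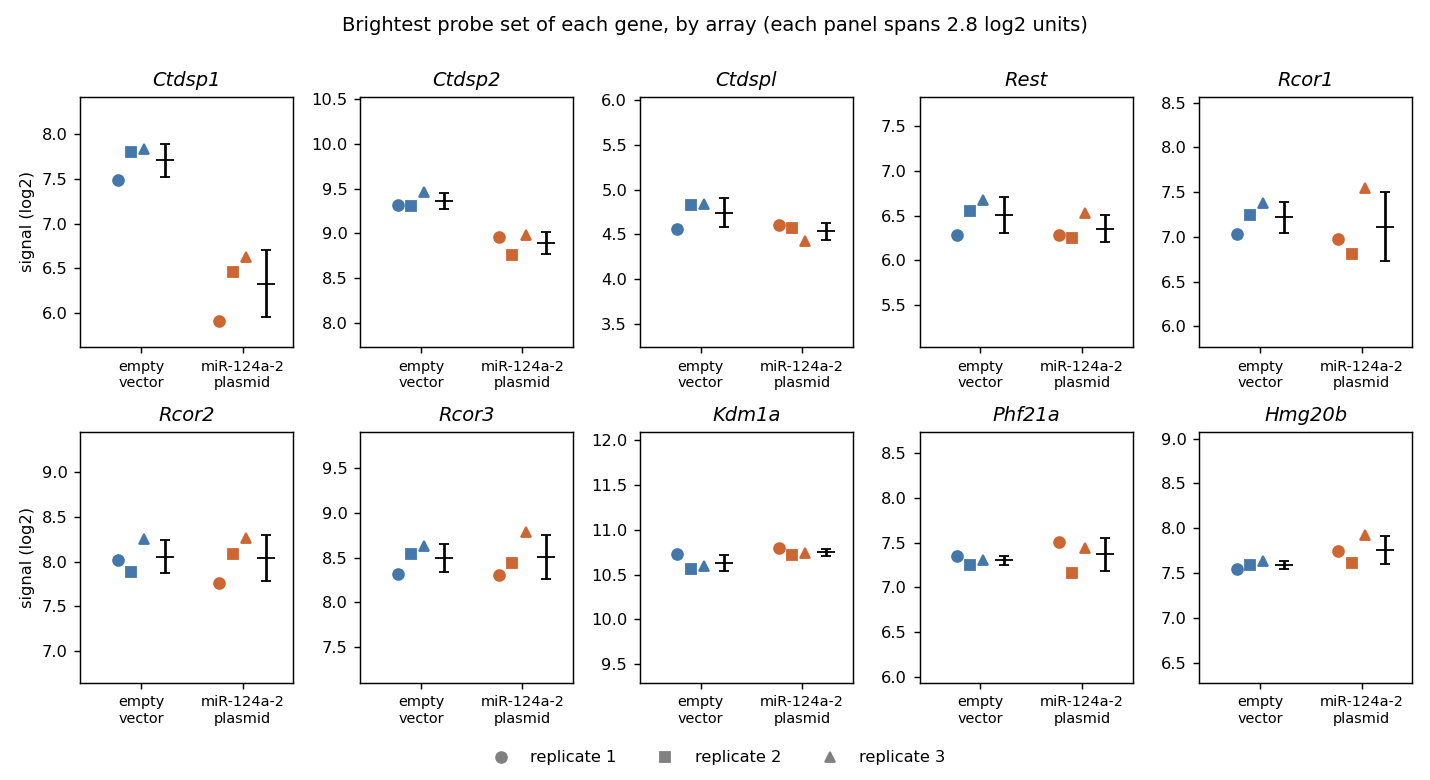
Log2 signal (vertical axis) of the brightest probe set of each of the 10 genes in the 3 empty vector arrays (blue) and the 3 miR-124a-2 plasmid arrays (orange), with the mean and SD of each group in black and the replicate shown by the marker. Ctdsp1 lies between 7.49 and 7.83 without miR-124a-2 and between 5.91 and 6.62 with it, Ctdsp2 is separated by a smaller step, and the groups of the other 8 genes overlap.

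Ctdsp1, which encodes the phosphatase SCP1, was measured by a single probe set (1452055_at). Its log2 signal was 7.49, 7.80 and 7.83 in the empty vector arrays and 5.91, 6.46 and 6.62 in the plasmid arrays. The groups did not overlap, and the lowest value was that of plasmid replicate 1. The mean fell from 7.71 ± 0.19 to 6.33 ± 0.37 (SD, n = 3 per group), a log2 change of -1.38 ± 0.19 (SE, limma adjusted p = 0.0383), or 2.60-fold lower. Only 14 probe sets of the array had a lower log2 change, and 95 had a smaller p. The arrays also fell into a set of narrow and a set of wide signal distribution (interquartile ranges of 3.06 to 3.10 and of 3.26 to 3.35), and the narrow set held 1 empty vector and 2 plasmid arrays. Ctdsp1 was 0.80 higher in the wide than in the narrow arrays, but this is without allowance for group and includes part of the group change. Within the empty vector it read 7.49 in the narrow array and 7.80 and 7.83 in the wide ones. Within the plasmid group it read 5.91 and 6.46 in the narrow arrays and 6.62 in the wide one. The change was -1.31 within the narrow set and -1.19 within the wide set. With the array set as a block it was -1.25 (adjusted p = 0.0123, where 1.13% of all probe sets passed). The size of the fall varied little when single arrays were left out, but the call depended on nearly every array. Without replicates 1, 2 and 3 of the empty vector the changes were -1.48, -1.33 and -1.31 (adjusted p = 0.0821, 0.264 and 0.240). Without plasmid replicates 1, 2 and 3 they were -1.17, -1.44 and -1.52 (adjusted p = 0.0954, 0.125 and 0.0173). The call was also lost when the arrays were centred on their medians (-1.38, adjusted p = 0.0751) and in replicates 2 and 3 alone (-1.27, adjusted p = 0.230), and the adjusted p ranged from 0.0109 to 0.264 over 17 alternative fits.

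Ctdsp2, which encodes the related phosphatase SCP2, had lower means with miR-124a-2 in all 3 of its probe sets, none of which passed. The brightest (1451075_s_at) read 9.31, 9.30 and 9.46 in the empty vector arrays and 8.95, 8.75 and 8.98 in the plasmid arrays. All plasmid values were lower than all empty vector values, by less than the Ctdsp1 values were. The log2 change was -0.46 ± 0.10 (SE, limma adjusted p = 0.161), with a 95% interval of -0.70 to -0.22, and it was -0.46 in the narrow set and -0.40 in the wide set. A probe set of lower signal (1423660_at) read 8.15, 8.41 and 8.50 without miR-124a-2 and 7.97, 7.85 and 8.04 with it, again without overlap, a change of -0.40 (adjusted p = 0.325). The third (1423661_s_at) overlapped between the groups, with 7.34, 7.81 and 7.73 against 7.09, 7.44 and 7.21, a change of -0.39 (adjusted p = 0.532). The annotation gives the same source sequence for all 3 probe sets, so they are repeated readings of 1 transcript region and not separate evidence. Over the alternatives the change of the brightest stayed between -0.51 and -0.39, and its adjusted p between 0.0647 and 0.630.

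Ctdspl, the gene of the phosphatase SCP3, had a dim signal, at percentile 47.5 of the mean signals of all probe sets. Its 1 probe set (1422510_at) had a mean of 4.74 ± 0.16 without and 4.53 ± 0.09 with miR-124a-2, under the median of 4.78 over the mean signals of all probe sets. The values were 4.56, 4.83 and 4.84 against 4.60, 4.57 and 4.43, so the groups overlapped. The log2 change of -0.21 did not pass (adjusted p = 0.727, 95% interval -0.47 to 0.05). It was 0.03 within the narrow arrays and -0.41 within the wide ones. A change of a dim transcript can be understated on this scale, which was not tested for Ctdspl.

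The 3 phosphatase genes were compared with each other through the difference of their log2 signals within each array, which removes any shift shared by the whole array. Ctdsp1 minus Ctdsp2 was -1.82, -1.51 and -1.63 in the empty vector arrays and -3.04, -2.30 and -2.35 in the plasmid arrays. The groups did not overlap, and the change of Ctdsp1 minus that of Ctdsp2 was -0.91 (exact permutation test, two-sided, p = 0.1, the smallest that 3 against 3 arrays allow; adjusted p = 0.3 over 6 pairs). Ctdsp1 minus Ctdspl went from 2.93, 2.96 and 2.99 to 1.31, 1.88 and 2.20, a difference of -1.16 (exact permutation p = 0.1, adjusted p = 0.3), and these groups did not overlap either, but the Ctdspl signal is dim and its own change may be understated. For Ctdsp2 against Ctdspl the difference was -0.25, and the groups overlapped (exact permutation p = 0.2, adjusted p = 0.4). A test of this size cannot reach 0.05, so a larger fall of Ctdsp1 than of its relatives was not shown by a passed test.

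**Figure D2:**
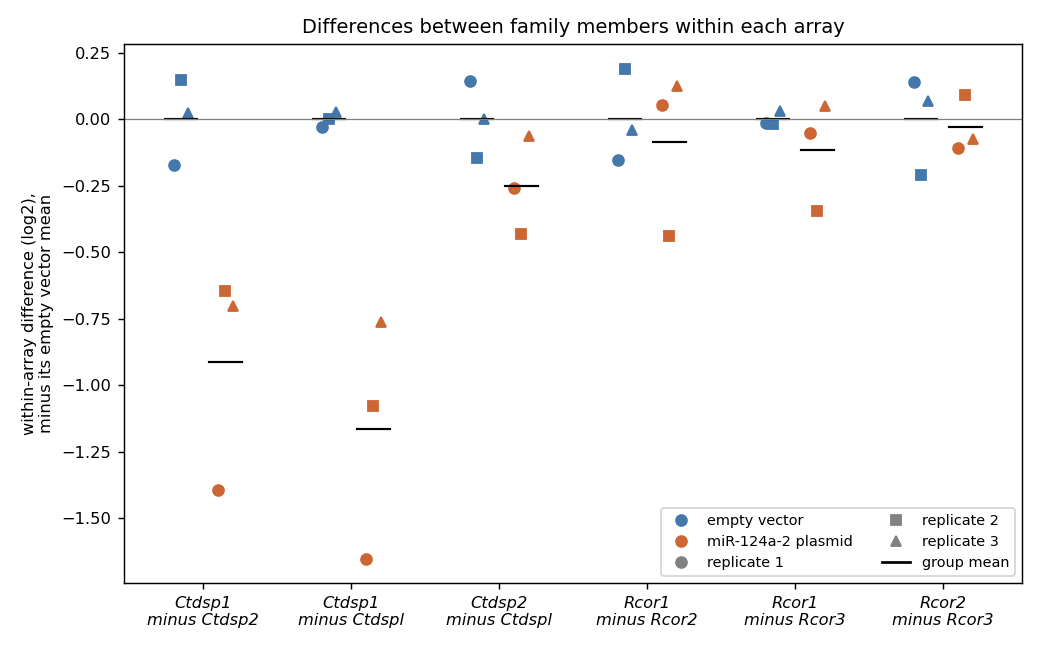
Difference in log2 signal between 2 genes of a family within each array (brightest probe set of each), after subtraction of the mean of the 3 empty vector arrays, for 6 pairs (horizontal axis). Blue points are empty vector and orange points plasmid arrays, and black bars are group means. Ctdsp1 against Ctdsp2 and against Ctdspl shows plasmid means at -0.91 and -1.16, while the plasmid means of the 3 Rcor pairs lie between -0.12 and -0.03.

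Rest itself, the DNA-binding subunit, had 4 probe sets, and none passed. The brightest (1425565_at) read 6.28, 6.55 and 6.68 in the empty vector arrays and 6.28, 6.25 and 6.53 in the plasmid arrays. The groups overlapped, and the log2 change was -0.15 ± 0.13 (SE, limma adjusted p = 0.892) with a 95% interval of -0.45 to 0.16. The fall of 1.38 seen for Ctdsp1 lies outside that interval. Values were 0.31 higher in the wide than in the narrow arrays, without allowance for group. The change was -0.01 within the narrow set and -0.08 within the wide set. The other 3 probe sets of Rest were dimmer, with means from 3.73 to 5.22 over the arrays and changes of 0.03, -0.00396 and -0.08. Splice forms of Rest, among them the truncated neuronal form, were not told apart here.

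The CoREST scaffold genes did not pass in any of their 10 probe sets. Rcor1, the founding member, read 7.03, 7.24 and 7.38 without and 6.98, 6.81 and 7.55 with miR-124a-2 in its brightest probe set (1454932_at). The lowest and the highest of these 6 values were both plasmid arrays, and the change was -0.10 ± 0.19 (SE, limma adjusted p = 0.962, 95% interval -0.55 to 0.34). A second Rcor1 probe set from the same source sequence (1434336_s_at) had a change of -0.22, with 6.48 in plasmid replicate 2 and 7.41 in plasmid replicate 3 as its extremes. Both were 0.44 to 0.45 higher in the wide than in the narrow arrays, again without allowance for group. Their changes were -0.14 and -0.43 within the narrow and 0.24 and 0.25 within the wide set, which is to say of opposite sign.

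The third Rcor1 probe set (1437545_at), from another source sequence, followed the replicate 1 arrays and not the groups. It read 5.91 and 5.86 in replicate 1 of the empty vector and of the plasmid, and 6.84 to 7.32 in the other 4 arrays. Replicate 1 minus the other arrays thus came to -1.24, at percentile 0.126 of this difference over all probe sets. In the same 2 arrays the transferrin receptor control had its highest log2 difference between 3′ and 5′ signal, 1.34 and 1.55 against 0.95 to 1.09 in the others. The poly-A controls, bacterial transcripts spiked into the RNA ahead of labelling, were also highest there (5.96 and 5.97 against 5.57 to 5.71). The part of either in the Rcor1 values was not tested. With these arrays included, the 95% interval of this probe set's change (-0.15) ran from -1.14 to 0.84, the widest among the members.

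**Figure D3:**
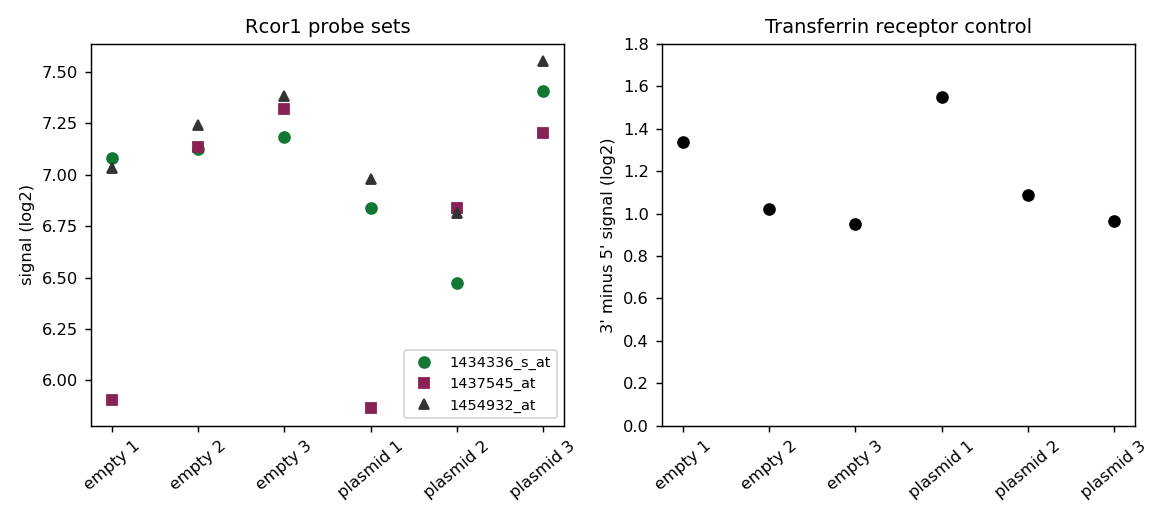
Left, log2 signal of the 3 Rcor1 probe sets in each of the 6 arrays (3 empty vector, 3 plasmid). Right, log2 difference between 3′ and 5′ signal for the transferrin receptor control in the same arrays. Probe set 1437545_at reads 5.91 and 5.86 in replicate 1 of either group, where that difference is 1.34 and 1.55.

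Rcor2, the CoREST gene known for its expression in neural progenitors, had 8.02, 7.89 and 8.26 in the empty vector arrays and 7.76, 8.09 and 8.26 in the plasmid arrays. The change was -0.02 ± 0.15 (SE, limma adjusted p = 0.995, 95% interval -0.37 to 0.34), and the ranges of the groups overlapped almost fully. Rcor3 had 6 probe sets, with means over the arrays from 3.74 to 8.50 and changes from -0.21 to 0.16, 3 below and 3 above 0. Its brightest (1428342_at) read 8.32, 8.54 and 8.63 without and 8.31, 8.44 and 8.78 with miR-124a-2, a change of 0.01 (adjusted p = 0.995, 95% interval -0.32 to 0.35). Within arrays, the differences among Rcor1, Rcor2 and Rcor3 moved by -0.12 to -0.03 between the groups, and all 3 pairs overlapped (exact permutation p = 0.5 to 0.9, adjusted p = 0.75 to 0.9 over the 6 pairs).

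Kdm1a, which encodes the lysine demethylase of the complex, was the brightest of the members. Its probe set 1426762_s_at read 10.74, 10.56 and 10.60 in the empty vector arrays and 10.80, 10.72 and 10.74 in the plasmid arrays. The change was 0.12 ± 0.09 (SE, limma adjusted p = 0.866), with a 95% interval of -0.10 to 0.33, the narrowest among the 26. The other Kdm1a probe set, from the same source sequence, gave a like value of 0.12. Both means were slightly higher with miR-124a-2, but the groups overlapped in both.

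Phf21a, whose product reads the histone tail that KDM1A has demethylated, had 4 probe sets with changes from -0.06 to 0.07. The brightest (1418391_at) read 7.35, 7.25 and 7.30 without and 7.50, 7.16 and 7.44 with miR-124a-2 (change 0.07, adjusted p = 0.953, 95% interval -0.19 to 0.33). Its highest and its lowest value were both plasmid arrays. Hmg20b, the HMG-box subunit, read 7.55, 7.59 and 7.63 in the empty vector arrays and 7.74, 7.62 and 7.92 in the plasmid arrays. Plasmid replicate 2 fell within the empty vector range, and the change of 0.17 ± 0.11 (SE, limma adjusted p = 0.791) did not pass. With a 95% interval of -0.07 to 0.42, it had the highest change of the 26 probe sets.

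**Figure D4:**
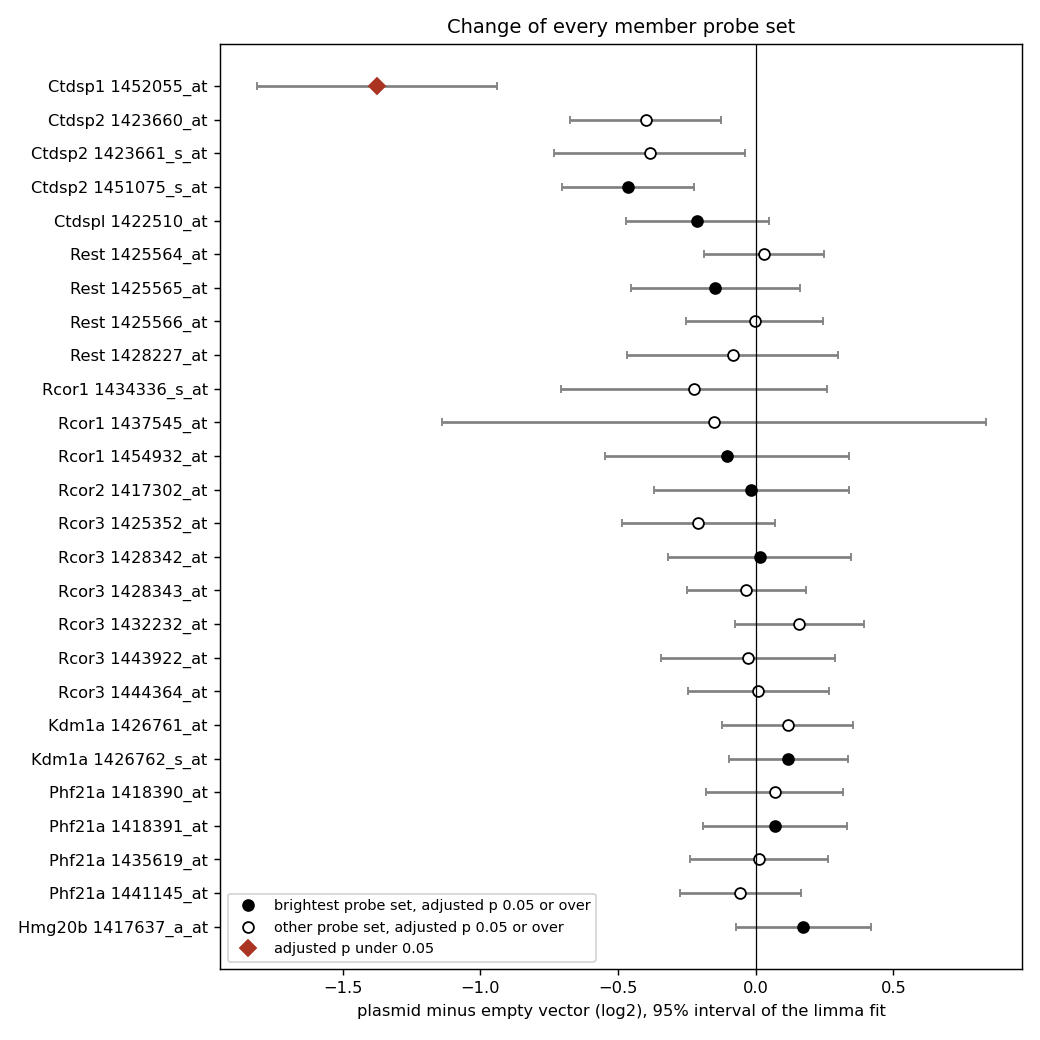
Log2 change, plasmid minus empty vector (horizontal axis), of each of the 26 member probe sets with its 95% interval from the limma fit. Ctdsp1 stands at -1.38 with an interval from -1.81 to -0.94, the 3 Ctdsp2 probe sets lie between -0.46 and -0.39, and the other 22 lie between -0.22 and 0.17.

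Among 18194 genes, each by its brightest probe set, those whose signal ran most closely with Ctdsp1 over the 6 arrays were Wtip (Pearson r = 0.999), Nudcd2 (r = 0.998), Cdca2 (r = 0.995), Irf5 (r = 0.994) and Ascc2 (r = 0.994). All 5 had lower means with miR-124a-2, from -0.87 for Wtip (adjusted p = 0.0495) to -0.41 for Cdca2, and Wtip was the one that passed. Over 17 alternative fits Wtip passed in 9, Ascc2 in 5, Nudcd2 in 4, Irf5 in 1 and Cdca2 in 0. These correlations rest on 6 arrays of 2 groups and are descriptions. Because the 5 genes were picked for running with Ctdsp1 in these arrays, their lower means and calls follow from the choice and are not separate evidence. Within the members, the Ctdsp2 probe sets had r = 0.84 to 0.88 with Ctdsp1, and those of Kdm1a had r = -0.77 and -0.84.

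Further genes of the pathway were taken from 3 lists. Of 34 measured partners of the REST corepressors, such as the histone deacetylases and SIN3 proteins, none passed in limma. Over all genes 0.423% passed (0.335% lower and 0.0879% higher). An unadjusted p under 0.05 was found for 2 of the 34, beside 1927 of all 18194 genes. The median change of the partners was -0.01, beside 0.02 for all genes, with 17 partners below and 17 above 0. The values of largest size were 0.39 for Btrc, which encodes the ubiquitin ligase subunit that marks REST for breakdown, and 0.36 for the BAF subunit gene Smarcc2. Btrc read 7.90, 7.82 and 7.91 without and 8.29, 8.22 and 8.28 with miR-124a-2, without overlap (adjusted p = 0.162), though 2 of its 5 probe sets had lower means with the plasmid. Smarcc2 read 8.21, 8.54 and 8.52 against 8.58, 8.89 and 8.88 (adjusted p = 0.490). In this list 2 genes were separated between the groups in the lower and 5 in the higher direction, beside 7.76% and 8.50% of all genes.

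Of 31 enzymes of the polymerase tail, relatives of the small phosphatases and SMAD genes, 1 fell and 30 did not pass in either direction. The gene that fell was Smad5, a transcription factor of BMP signalling. It read 8.08, 7.89 and 7.97 in the empty vector arrays and 6.96, 6.97 and 7.31 in the plasmid arrays. The groups did not overlap, the change was -0.90 ± 0.12 (SE, limma adjusted p = 0.0381), and all 3 of its probe sets had lower means. Within the narrow arrays it was -1.11 and within the wide arrays -0.62. It lost the call without replicates 1, 2 and 3 of the empty vector (adjusted p = 0.112, 0.219 and 0.223), without plasmid replicates 1 and 2 (0.147 and 0.136), with median centring (0.0681) and in replicates 2 and 3 alone (0.311), the range over the alternatives being 0.0132 to 0.311. The median of the list was -0.05, with 20 genes below and 11 above 0. An unadjusted limma p under 0.05 was found for 3 of the 31, beside 1927 of all 18194 genes. In this list 6 genes, Smad5 among them, were separated in the lower and 1 in the higher direction, beside 7.76% and 8.50% of all genes. Polr2a, the gene of the polymerase subunit whose tail the SCPs act on, was chosen after its values were seen. It read 8.99 and 8.94 in replicate 1 of the empty vector and of the plasmid, and 9.76 to 10.11 elsewhere, low in the same 2 arrays as the Rcor1 probe set 1437545_at, and its change was -0.08 (adjusted p = 0.990).

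Genes that REST is known to repress did not pass either, although most had higher means. Of 53 measured genes none passed in limma, and 15 had an unadjusted p under 0.05, beside 1927 of all 18194 genes. With miR-124a-2, 45 of the 53 had higher and 8 lower means, and their median change was 0.21, beside 0.02 for all genes. In 17 of the 53 every plasmid array was above every empty vector array, beside 8.50% of all genes, and in none was every plasmid array below. Many of them are neuronal genes in general. Among 9 markers of catecholaminergic neurons outside the list, 6 had higher means, the median change was 0.15 and none passed. An unadjusted p under 0.05 was found for 3 of them, all higher: Ddc (0.52), Gap43 (0.32) and Isl1 (0.28). Of the 2 Ddc probe sets, 1 had a lower mean with the plasmid. The difference between the 9 markers and the REST-repressed list was not tested. The median of the 53 REST-repressed genes was 0.16 in the narrow set and 0.21 in the wide set. Their changes of largest size were 0.88 in Slc12a5, the neuronal chloride transporter gene, and 0.70 in the sodium channel gene Scn3a.

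Slc12a5 read 6.84, 6.33 and 6.43 without and 7.62, 7.20 and 7.44 with miR-124a-2, without overlap (limma adjusted p = 0.0975). It passed with one probe set per gene (adjusted p = 0.0481) and when the poly-A set was a block (adjusted p = 0.0221). Over the alternatives its adjusted p ranged from 0.0142 to 0.477. The poly-A set divides the arrays at the largest gap in mean poly-A control signal, which sets replicate 1 of either group apart. The labels name no batch. Scn3a was dim, at 3.93, 4.28 and 3.96 against 4.27, 4.27 and 5.74, and its change of 0.70 was 0.22 without plasmid replicate 3. Of its 2 probe sets, 1 had a lower mean with the plasmid. When the array set was the block, 5 genes of the list passed and rose, Scn2a, Olfm1, Syt4, Gria2 and Elavl4 (adjusted p = 0.0263, 0.0373, 0.0411, 0.0440 and 0.0465), where 0.621% of all genes passed in that direction. When the poly-A set was the block, Slc12a5, Olfm1 and Syt1 rose (adjusted p = 0.0221, 0.0437 and 0.0488), where 0.291% of all genes did. These genes were chosen after their values were seen. In Scn2a and in Syt1, 1 of 4 probe sets had a lower mean with the plasmid.

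**Figure D5:**
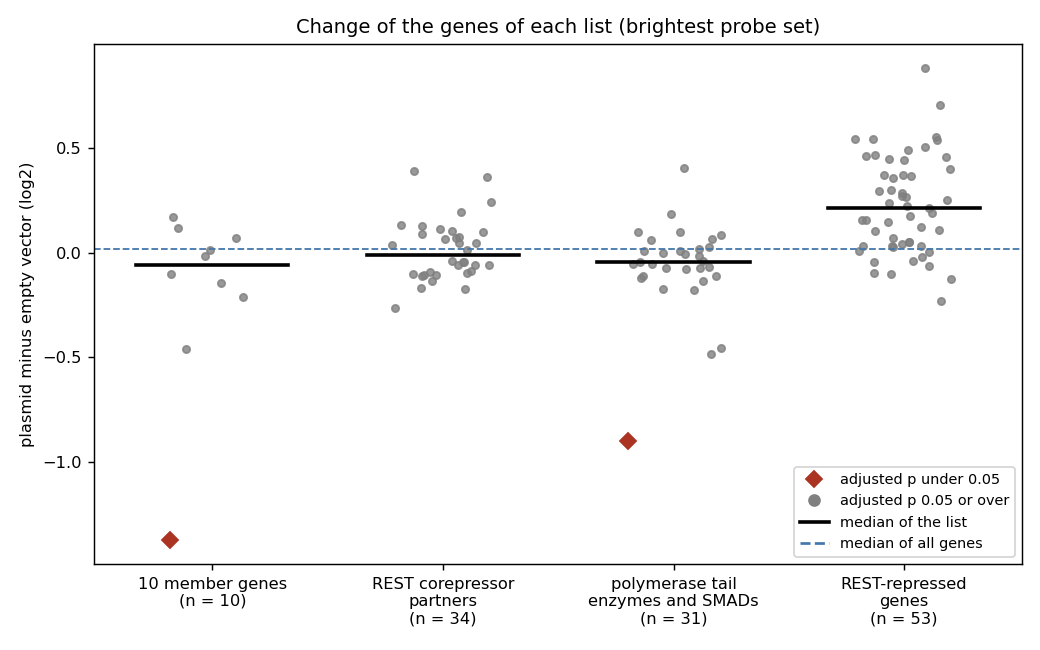
Log2 change, plasmid minus empty vector (vertical axis), of the 10 member genes and of the measured genes of the 3 pathway lists, each by its brightest probe set. Red diamonds passed (Ctdsp1 and Smad5), black bars are list medians, and the dashed line is the median of all genes at 0.02. The median of the REST-repressed genes is 0.21, and the others lie between -0.06 and -0.01.

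The DNA element bound by REST, called RE1, was looked for in the RefSeq promoters of these genes (250 bases before to 50 after the start, build GRCm38.p6). The sequences are shown to let a reader see what such an element looks like in a few genes of the list, and binding was not measured. The left part of the element, TTCAGCACC, stood on either strand in 5 of 54 promoters of 35 matched genes of the list (9.26%), beside 0.371% of all 32851 promoters. In 3 of these, Celsr3, Dner and Syn1, it lay wholly before the start, and the capitals mark it below. Their coordinates are chr9:108825908-108825936 (plus strand), chr1:84696353-84696381 (minus strand) and chrX:20921132-20921160 (minus strand).
Celsr3: cccagctccgTTCAGCACCgtgggcagca
Dner: aaattgccggTTCAGCACCaaggacaagg
Syn1: cactgtcggaTTCAGCACCgcggtcagag
The right part, GGACAGCGC, stood in 2 of the 54 promoters (3.70%, beside 0.405% of all). Celsr3, a cadherin gene of axon guidance, had a change of 0.49 without overlap (adjusted p = 0.109). Dner, a Notch-binding neuronal protein gene, had 0.27, and Syn1, the synapsin gene of synaptic vesicles, had 0.30, both overlapping (adjusted p = 0.910 and 0.774). Neither string was found in the 13 promoters of 9 matched member genes.

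The labelled line was checked by its markers. Of 16 measured genes of catecholaminergic neurons, 14 were above the median probe set, with a mean log2 signal of 8.33 to 8.39 in the empty vector and 8.49 to 8.59 in the plasmid arrays. Also above that median were 4 of 9 markers of glia, 2 of 6 of blood cells and 2 of 7 of fibroblasts. The same held for 1 of 6 markers of endothelium and 3 of 6 of epithelium. Lists for glia, blood cells, fibroblasts, endothelium and epithelium averaged 4.01 to 5.29 in every array, and none of the 50 measured markers passed in limma. Of the 50, 7 had an unadjusted p under 0.05, beside 1927 of all 18194 genes. Among the 7 were 6 of the 16 neuronal markers, all 6 higher with miR-124a-2. The remaining marker was the epithelial gene Krt8, also higher (0.32). In bulk RNA, fewer cells with a transcript and less of it per cell cannot be told apart.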

How the data were processed

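The deposited file holds a log2 signal for each probe set on each array, which the authors computed by RMA, per the submitters' processing notes; a version and the probe definitions are not given in the sources used here. Labelled cRNA was made from 6 ug of total RNA, per the labels' protocols. All 45101 probe sets were tested in limma 3.58.1 (R 4.3.3; lmFit and eBayes, two-sided, no block), without further normalization or filter. Genes were named from the platform annotation, and all 10 symbols matched a RefSeq gene table (GRCm38.p6). Errors of changes are standard errors of the fit, and intervals cover 95%. Family members were compared by exact permutation over arrays. The members, lists and settings were chosen with earlier results of these data known. The fit was tested on simulated data. Named genes were all members, the genes of each list that passed (at most 4) or else the 2 of largest change, and the 5 most like Ctdsp1. Alternatives with a block used replicate number, array set or poly-A set. The array set was divided at the largest gap in interquartile range, and the poly-A set at that in mean poly-A control signal. Other alternatives were each array left out, replicates 2 and 3 alone, median centring, quantile normalization, an intensity trend and no dim probe sets. The last were one probe set per gene, no control probe sets, and a threshold of 0.01. The mature miR-124 sequence and 3′ untranslated regions were not used here.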

Additional observations from a re-analysis of the deposited data

How the results depend on the processing

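The signs of the changes of Ctdsp1, Ctdsp2 and Smad5 held in every fit run, and 12 of 26 member probe sets, none of them past the threshold in any fit, changed sign in at least 1 of up to 17 alternatives. Over the whole array 121 probe sets passed, against 509 and 339 when the array set or the poly-A set was the block. The number was 262 with quantile normalization, 215 with an intensity trend and 39 with median centring. It was 0 at a threshold of 0.01 (3688 at an unadjusted p under 0.05 in limma) or in replicates 2 and 3 alone (3732). Leaving out single arrays gave 0 to 352 (2309 to 5514 at an unadjusted p under 0.05), 0 to 1 for the members, 0 to 1 for the polymerase tail list and 0 in each case for the REST-repressed genes and the corepressor partners. The members that passed went from 1 to 0 with median centring, at 0.01 and in replicates 2 and 3 alone, as did the polymerase tail list, where 2 passed when the array set was the block (Smad1 rising, adjusted p = 0.0292). For the REST-repressed genes the count was 5 and 3 when the array set or the poly-A set was the block. It was 3 with an intensity trend and 1 with quantile normalization, where 215 and 262 of all 45101 probe sets passed. With one probe set per gene it was 2, and the share of all genes in that fit is not given here. The correlations of same-numbered deviations from the group means were 0.54, -2.65e-05 and 0.55 for replicates 1, 2 and 3. Between arrays of different number they ran from -0.58 to 0.31. Replicates 1 and 3 thus ran together across the groups and replicate 2 did not, and a pairing was not tested. With the replicate block 673 probe sets passed, 1 of them a member (Ctdsp1, adjusted p = 0.0109). In that fit 4 of the 53 REST-repressed genes passed, all higher, beside 104 of all 18194 genes in that direction. Over the alternatives, the group difference of Rcor1 minus Rcor2 ran from -0.19 to 0.09 and that of Rcor2 minus Rcor3 from -0.13 to 0.04. Both ranges included 0.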
